A study of Mus musculus with 70 samples.

Results

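The fractured femur 7 d after injury was compared with the stress-fractured ulna 5 d after injury, the sampled days with the highest mean of the cartilage collagen gene Col2a1 in each bone. The quantity examined was the log2 change of the fractured femurs from intact femurs minus the log2 change of the injured ulnas from intact ulnas, called the difference below. It used 29 of the 67 library columns in the deposited tables, while the labels list 70 samples. There were 10 intact femurs, 5 femurs at 7 d after full fracture, 9 intact ulnas and 5 ulnas at 5 d after stress fracture. All animals were 12-week-old female c57bl/6 mice. In a full fracture the femur is broken through, whereas a stress fracture is a partial crack made in the ulna by loading. The intact limbs were uninjured left limbs of injured animals, so they are not limbs of untreated mice. A 7 mm section of femur was cut around the break and its marrow was spun out in a centrifuge. A 5 mm section was cut from the ulna, and for it the protocol names no marrow removal. Soft tissue was taken off in both bones. Bone, injury, day, section length and marrow treatment all differ between the arms and cannot be told apart in the difference. RNA came from whole pulverised sections. The labels call the 7 d femur samples callus and the 5 d ulna samples periosteum, although the protocol describes sections of whole bone. The day of the ulna columns is given only by the names of the deposited sheets.

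In endochondral repair, progenitors of the periosteum become chondrocytes under the transcription factor Sox9 and its partners Sox5 and Sox6. They secrete a matrix of collagen II, collagen IX, collagen XI and aggrecan, then enlarge, switch to collagen X, signal through Indian hedgehog and are replaced by bone. In intramembranous repair osteoblasts lay down a collagen I matrix directly, and some become osteocytes, the cells embedded in mineralised bone that make sclerostin.

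Values are RPKM scaled between libraries (scaled RPKM), changes are log2 differences, and ± after a change is the standard error of the limma fit. A gene rose, fell or differed where its p adjusted by Benjamini and Hochberg over 19872 genes was under 0.05. Table columns were not tied to animals by the labels, so p-values measure the spread between libraries only. Assigned reads per library ran from 8.11 to 30.8 M, with 21.3 ± 5.63 M (SD, n = 5) in the fractured femurs and 15.4 ± 1.34 M (SD, n = 5) in the injured ulnas. Several libraries stood apart from their group. In intact femur library 2 the muscle fibre score, the mean log2 difference of a list's members from the intact mean of that bone, was -1.08 and the platelet score 0.86. Intact ulna library 2 had a cartilage matrix score of 1.19 against at most 0.12 in the other intact ulnas. Fractured femur library 1 had an erythroid score of -2.44 where the other 4 had between -5.85 and -5.09. Without these 3 libraries, a choice made after seeing the data, 4259 genes had a higher and 4023 a lower difference.

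With all libraries, the difference was higher than 0 in 4585 genes (23.1% of those tested) and lower in 4259 (21.4%). Under upper-quartile scaling, which moved the median difference of all genes from -0.05 to -0.18, the split was 3204 higher and 5409 lower. Differences of at least 1 log2 were held by 816 genes above 0 (4.11%) and by 1979 below 0 (9.96%). In the femur 6480 genes rose (32.6%) and 7033 fell (35.4%), and in the ulna 4235 rose (21.3%) and 4192 fell (21.1%). The direct comparison of levels placed 5888 genes higher (29.6%) and 6091 lower (30.7%) in the injured ulna than in the fractured femur. The intact bones already differed, with 3797 genes higher (19.1%) and 4563 lower (23%) in the ulna. These splits depend on the scaling. With RPKM as deposited, 8624 genes were higher and 3556 lower in the injured ulna than in the fractured femur, 8029 higher and 2142 lower in the intact ulna, 4810 rose and 8876 fell in the femur, and 3071 rose and 6740 fell in the ulna. Upper-quartile scaling gave 7299 higher and 4562 lower for the injured bones and 5111 rises and 8585 falls in the femur. Over all genes tested the median change was -0.09 in the femur and -0.04 in the ulna, or -0.29 and -0.18 with RPKM as deposited. Of the 3404 genes that rose in both bones, 1707 rose more in the femur, 141 rose more in the ulna and 1556 did not differ by the test. Counts of list members below are to be read beside the shares of all genes given here.

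**Figure D1:**
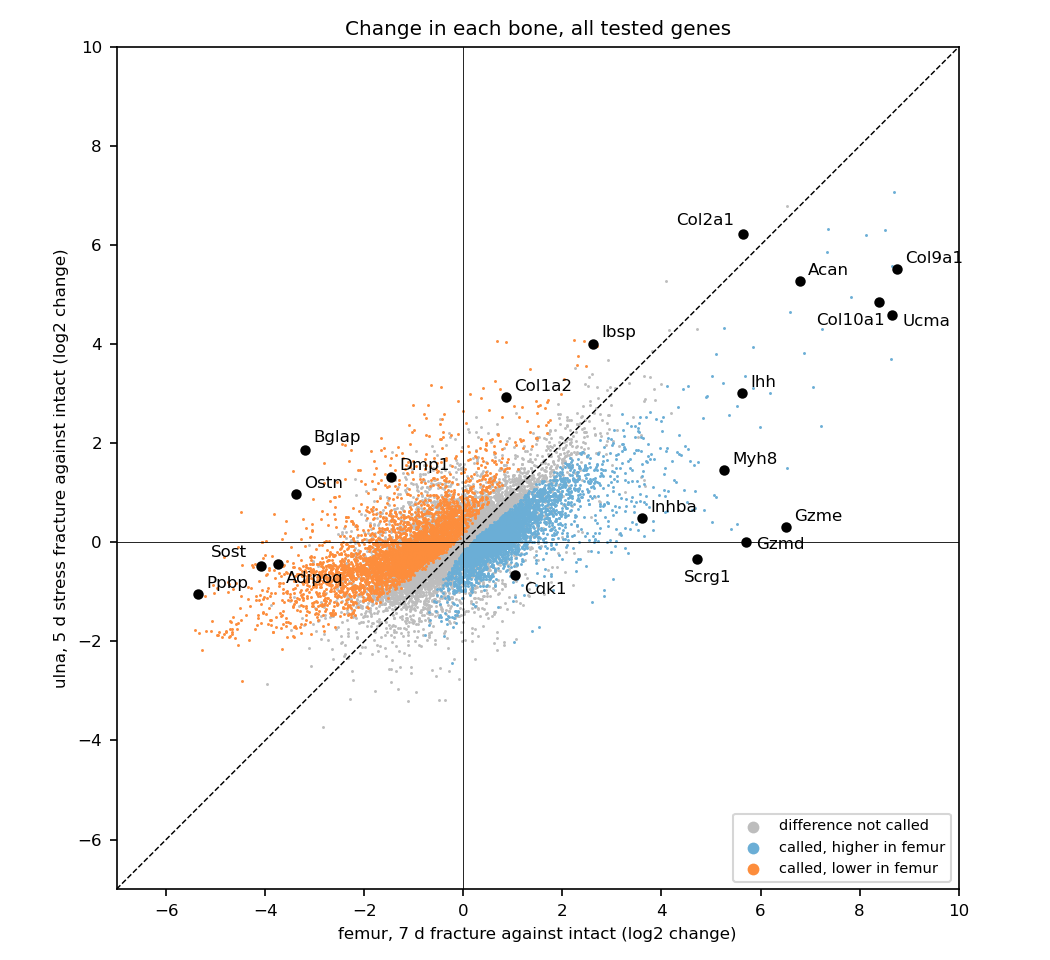
Each point is 1 of the 19872 genes tested, with its log2 change in the femur at 7 d on the horizontal axis and in the ulna at 5 d on the vertical axis; blue points had a higher and orange points a lower difference, grey points did not pass, and the dashed line marks equal change. Col2a1 lies beside the line, the granzymes and Scrg1 lie far to the right at an ulna change near 0, and Bglap lies at a negative femur and a positive ulna change.

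The 3 largest differences belonged to granzymes C, D and E, neighbouring genes for serine proteases known from mouse cytotoxic lymphocytes. Gzme, at chr14:56117626-56120625 on the minus strand of GRCm38, was at 20.8, 18.7, 18.0, 13.7 and 24.7 scaled RPKM in the 5 fractured femurs. The intact femurs gave 0, 0.134 and 0.401 as lowest, median and highest. All 9 intact ulnas were listed at 0, and the injured ulnas were at 0, 0.0698, 0, 0.0677 and 0. Each fractured femur was thus above every other library. However, Gzme was tested only because these 5 femurs reached 0.5 scaled RPKM. The filter therefore fixed this separation in advance, and the p-value of Gzme is a description. The fitted change was 6.51 ± 0.35 in the femur and 0.30 ± 0.36 in the ulna (difference 6.21 ± 0.50, adjusted p = 3.25e-10), and with ulnas listed at 0 these sizes depend on the added pseudocount of 0.1. Gzmd was at 8.42, 8.31, 7.71, 6.49 and 15.5 scaled RPKM in the fractured femurs, library 5 standing far above the rest, and was listed at 0 in all 14 ulnas. Gzmc ranged from 5.96 to 7.88 in the fractured femurs and up to 0.0720 in the injured ulnas. Neither Gzmd nor Gzmc reached 0.5 scaled RPKM in any ulna, so both were tested through femurs alone. Their differences are descriptions as well. The 3 genes are near-copies of each other, so the split of reads among them is uncertain. Other genes of cytotoxic cells, chosen after their values were seen, had other values in the same femurs. Gzmb, granzyme B, rose by 1.69 to 1.41 scaled RPKM. Gzma, granzyme A, changed by -1.43, Prf1, the pore former perforin, by -0.97, Nkg7, a granule protein of killer cells, by -2.76 and Ncr1, a receptor of natural killer cells, by -1.67, all falls by the test. In bulk tissue fewer cells of a type and less RNA per cell cannot be told apart.

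The promoters of the 3 granzymes are shown because these genes moved together, beside those of Ucma, a cartilage gene that rose more in the femur, and Bglap, a bone gene that went opposite ways. Each is the 200 bases before the RefSeq start (GRCm38.p6), 5′ to 3′ on the gene's strand. The windows are chr14:56234658-56234857, chr14:56132594-56132793 and chr14:56120626-56120825 on the minus strand, chr2:4975922-4976121 on the plus strand and chr3:88384467-88384666 on the minus strand. Capitals mark the RUNX core TGTGGT or its reverse complement ACCACA and the TATA box TATAAA.
Gzmc: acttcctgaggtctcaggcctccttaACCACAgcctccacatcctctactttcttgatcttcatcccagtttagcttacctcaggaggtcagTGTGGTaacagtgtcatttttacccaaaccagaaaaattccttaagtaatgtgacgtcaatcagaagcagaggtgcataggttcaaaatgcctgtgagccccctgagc
Gzmd: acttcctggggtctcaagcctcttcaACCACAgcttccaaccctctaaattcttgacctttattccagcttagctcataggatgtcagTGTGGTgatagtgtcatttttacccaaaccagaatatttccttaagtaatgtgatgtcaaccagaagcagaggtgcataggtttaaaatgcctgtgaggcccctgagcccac
Gzme: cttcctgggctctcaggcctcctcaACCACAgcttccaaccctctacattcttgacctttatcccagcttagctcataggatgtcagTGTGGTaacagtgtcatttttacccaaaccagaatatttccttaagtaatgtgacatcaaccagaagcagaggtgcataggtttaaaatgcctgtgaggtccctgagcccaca
Ucma: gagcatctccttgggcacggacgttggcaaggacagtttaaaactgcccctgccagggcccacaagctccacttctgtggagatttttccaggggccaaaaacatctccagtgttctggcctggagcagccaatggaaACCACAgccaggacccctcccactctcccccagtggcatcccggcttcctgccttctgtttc
Bglap: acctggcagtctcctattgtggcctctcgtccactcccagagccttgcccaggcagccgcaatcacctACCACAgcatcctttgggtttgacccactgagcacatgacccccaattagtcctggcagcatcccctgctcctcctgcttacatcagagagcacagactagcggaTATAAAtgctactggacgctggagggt
The 3 granzyme windows were 86.5% to 94.5% identical in pairwise alignment, and Gzme and Ucma 54.0%. Each granzyme held the RUNX core on its own strand, beginning 108 (Gzmc), 112 (Gzmd) or 113 (Gzme) bases before the start, and again on the opposite strand 174 or 175 bases before it. Ucma held 1 match on the opposite strand, beginning 62 bases before its start. Bglap held 1 on the opposite strand 132 bases before and a TATA box 27 bases before its start. Over RefSeq promoters running from 250 bases before to 50 after the start, searched on both strands, 16.9% of 27018 held the RUNX core and 13.1% of the 11467 promoters of genes tested. Among the 12 genes with the highest differences 9 had a RefSeq promoter, and 5 of these (55.6%) held it, the 3 granzyme near-copies among them. It was in 2 of 10 promoters among the 12 lowest differences, 0 of 6 cartilage collagens, 1 of 8 hypertrophic and 5 of 12 noncollagenous cartilage genes and 4 of 9 osteoblast genes. The SOX core ACAATG was in 12.8% of all promoters and in 7.54% of those of genes tested. It was in 1 of the 9 promoters among the 12 highest differences and in 2 of 10 among the 12 lowest. The TATA box was in 14.2% of all promoters and in 7.66% of those of genes tested. It was in 0 of 9 among the highest and in 5 of 10 among the lowest differences. A match describes the letters only.

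Cartilage collagens rose in both injured bones, and 5 of 8 rose more in the femur. Col2a1, the fibril collagen of cartilage, was at 4335, 1975, 5423, 5960 and 2826 scaled RPKM in the fractured femurs, from 40.4, 82.7 and 125 (lowest, median, highest) in intact femurs. The injured ulnas were at 224, 933, 589.7, 385 and 249, from 2.49, 5.32 and 13.5 in intact ulnas. Injured and intact libraries of a bone did not overlap, and every fractured femur was above every injured ulna, but intact femurs were already above intact ulnas. The changes were 5.65 ± 0.39 in the femur and 6.23 ± 0.40 in the ulna, and their difference, -0.58 ± 0.56, did not pass (adjusted p = 0.421, 95% interval -1.73 to 0.56). Col9a1, which encodes a chain of the collagen IX that decorates collagen II fibrils, had medians of 1.17 in intact femurs and 0.901 in intact ulnas, a called difference (adjusted p = 0.0446). It reached 652, 419.8, 763, 639.9 and 416 in the femurs and 24.3, 104, 51.4, 30.5 and 29.0 in the ulnas. The groups did not overlap, ulna library 2 being the highest ulna as for most cartilage genes, and the difference was 3.25 ± 0.35 (adjusted p = 5.59e-08). Col10a1, the collagen of hypertrophic chondrocytes, reached 2519, 1794, 4153, 2895 and 2098 in the femurs and 125, 286, 79.1, 69.9 and 35.0 in the ulnas, a difference of 3.54 ± 0.41 (adjusted p = 1.61e-07). Col9a2 (1.92 ± 0.32), Col9a3 (2.21 ± 0.34) and Col27a1 (1.04 ± 0.28) also rose more in the femur.

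Collagen XI went the other way. Col11a2 changed by 1.47 ± 0.29 in the femur and 2.85 ± 0.30 in the ulna, a difference of -1.37 ± 0.42 (adjusted p = 0.00852), and Col11a1 had a difference of -1.08 ± 0.44 (adjusted p = 0.0456). The call of Col11a1 was close to the threshold, and only 1 collagen had a lower difference without any of 18 single libraries. Both chains were abundant in intact femurs, with means of 145 for Col11a1 and 216 for Col11a2. Of the 8 collagens 8 rose in the femur (32.6% of all genes) and 8 in the ulna (21.3%), while 5 had a higher (23.1%) and 2 a lower (21.4%) difference; the median change was 6.89 in the femur and 5.18 in the ulna, and the median difference 1.48. In level all 8 were lower in the injured ulna than in the fractured femur (30.7% of all genes), and all 8 were also lower in the intact ulna than in the intact femur (23% of all genes); both counts were 7 with RPKM as deposited. Summed over the 8 genes, mean scaled RPKM went from 461 ± 174 (SD, n = 10) to 10070 ± 3383 (SD, n = 5) in the femur. In the ulna it went from 80.1 ± 33.3 (SD, n = 9) to 1277 ± 557 (SD, n = 5). RNA of the cartilage collagens was thus raised in both injured bones. The days compared held the highest mean Col2a1 of each bone, so these rises describe that choice and do not check it.

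Most noncollagenous cartilage genes rose more in the femur. Acan, the core protein of aggrecan, reached 999.9, 561, 1011, 1049 and 695 scaled RPKM in the fractured femurs and 88.2, 184, 139.5, 112 and 77.3 in the injured ulnas, from medians of 7.86 and 2.62 in the intact bones. Its difference was 1.52 ± 0.42 (adjusted p = 0.00403). Scrg1, first known as a transcript raised in scrapie-infected brain and also expressed in cartilage, was at 66.0, 47.1, 68.2, 59.1 and 38.4 in the fractured femurs against 0.973 to 4.20 in intact ones. In the ulna it was at 2.87, 2.94, 5.28, 3.39 and 1.88 in injured and 2.71 to 6.89 in intact limbs, ranges that overlap. Scrg1 therefore rose by 4.71 ± 0.25 in the femur, while the ulna value of -0.33 ± 0.25 did not pass (difference 5.04 ± 0.35, adjusted p = 2.22e-11). Ucma, a secreted matrix protein of cartilage at chr2:4976122-4985748 whose promoter is shown above, reached 207, 163, 223, 185 and 102 in the femurs and 0.730, 13.4, 10.9, 2.4 and 1.94 in the ulnas. The ulnas spread widely, from 0.730 to 13.4, without reaching the femurs, and the difference was 4.06 ± 0.66 (adjusted p = 1.55e-05). Epyc, the small proteoglycan epiphycan, rose in both bones with a difference of 5.02 ± 0.40 (adjusted p = 2.46e-10), its highest ulna being library 2 at 1.06. Clec3a, a cartilage lectin, had a difference of 4.94 ± 1.01 (adjusted p = 0.000241), and intact ulna library 2 was at 10.1 where the intact ulna median was 0.442.

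Of the 18 noncollagenous cartilage genes, 16 rose and 1 fell in the femur, 14 rose in the ulna, and 13 had a higher and 1 a lower difference; the median change was 6.03 in the femur and 2.96 in the ulna, and the median difference 2.20. Lect1, the growth inhibitor chondromodulin (3.08 ± 0.43), Matn1, a matrilin (2.93 ± 0.54), Snorc, a membrane proteoglycan of cartilage (2.87 ± 0.68), and Comp, which binds collagen fibrils (2.77 ± 0.30), all rose more in the femur. Cytl1 had a difference of 2.86 ± 0.76, but its intact ulna mean of 8.34 was above its femur mean of 4.11 after fracture. Chad, the cell-binding matrix protein chondroadherin, rose in both bones by 0.56 and 0.60, calls that were lost with RPKM as deposited (adjusted p = 0.186 and 0.109) and under upper-quartile scaling (adjusted p = 0.159 and 0.0621). Its difference was -0.04 ± 0.34 (95% interval -0.74 to 0.65). Cilp2, a cartilage layer protein, fell in the femur by 1.28 and had the only lower difference of the list at -1.43 ± 0.26. Prg4, the lubricant of joint surfaces, passed in neither bone. Outside these lists, Moxd1, an oxidase-like protein, reached 109, 66.3, 95.6, 94.5 and 67.3 in the femurs and 6.30, 16.0, 8.6, 8.11 and 4.00 in the ulnas (difference 4.88 ± 0.32), and Brinp3, Ncmap and Cmtm5 were among the 12 highest differences at 5.14, 4.18 and 3.96. Actg2, the smooth muscle gamma actin, had a difference of 4.62 ± 0.44 and Acta2, the smooth muscle alpha actin also found in myofibroblasts, 1.93 ± 0.34.

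**Figure D2:**
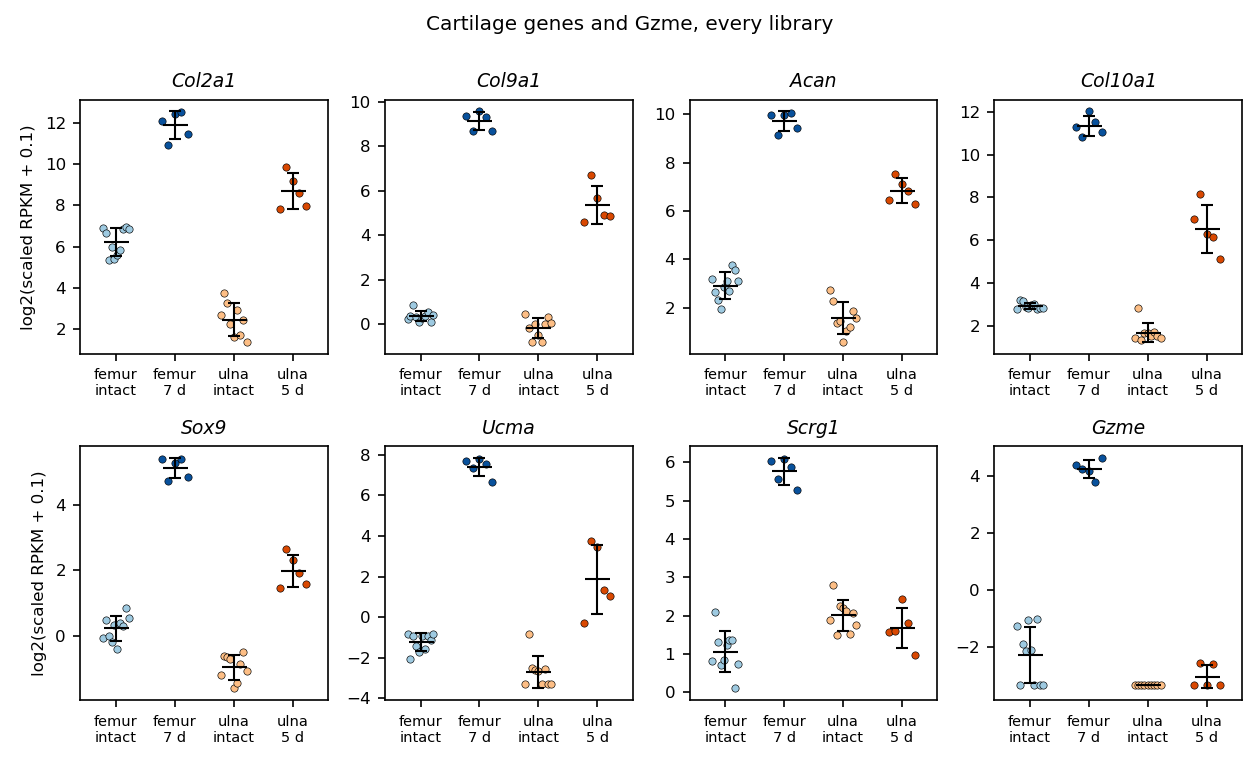
Scaled RPKM of 7 cartilage genes and Gzme in every library, on a log2 scale after adding 0.1, in intact femur (n = 10), femur 7 d (n = 5), intact ulna (n = 9) and ulna 5 d (n = 5); points are libraries and bars the mean and SD of log2 values. Col2a1 rises from a higher start in the femur, Col9a1 and Col10a1 reach a far higher level in the femur, and Scrg1 and Gzme are raised in the femur at 7 d with ulna libraries near their intact values.

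Enzymes that build and sulphate chondroitin chains, the charged sugar chains of aggrecan, rose in both bones and mostly more in the femur. Slc26a2, the sulphate importer of chondrocytes, was at 56.8, 37.2, 46.5, 46.3 and 31.5 scaled RPKM in the fractured femurs and 5.72, 8.32, 7.4, 6.36 and 5.99 in the injured ulnas. The intact bones were at medians of 3.46 and 2.63, and no fractured femur overlapped an ulna. Its difference was 2.26 ± 0.15 (adjusted p = 8.2e-12). Papss2, which makes the activated sulphate donor, had a difference of 2.25 ± 0.18, Xylt1, which adds the first sugar to the core protein, 2.29 ± 0.15, Csgalnact1, which starts the chondroitin chain, 1.97 ± 0.14, and Ugdh, which makes the glucuronic acid precursor, 1.71 ± 0.14. Of 18 genes 17 rose and 1 fell in the femur, 16 rose and 1 fell in the ulna, and 14 had a higher and 1 a lower difference; the median change was 1.86 in the femur and 0.90 in the ulna, and the median difference 0.83. The sulphotransferase Chst3 was the one that fell in both bones, by 1.60 and 0.83, with a difference of -0.77 ± 0.30 that no longer passed without femur 7 d library 5 (adjusted p = 0.0974) or intact femur library 2 (adjusted p = 0.0516).

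Among chondrocyte transcription factors Sox9 was at 42.1, 26.3, 38.3, 41.7 and 29.0 scaled RPKM in the fractured femurs and 2.65, 6.18, 4.88, 3.70 and 2.90 in the injured ulnas. Intact femurs ranged from 0.658 to 1.72 and intact ulnas from 0.230 to 0.612, so both bones separated fully from their intact limbs. The change was 4.89 ± 0.21 in the femur and 2.94 ± 0.21 in the ulna (difference 1.95 ± 0.30, adjusted p = 7.75e-06). Sox5 rose by 2.38 ± 0.14 in the femur and its ulna change of 0.27 ± 0.14 did not pass (difference 2.11 ± 0.20, adjusted p = 6.69e-09). Sox6 did not rise, with -0.29 ± 0.14 in the femur, which became a called fall with RPKM as deposited (-0.49, adjusted p = 0.000841) and under upper-quartile scaling (-0.46, adjusted p = 0.00462), a fall by 0.69 in the ulna and a difference of 0.40 ± 0.19 that did not pass, though it did without femur 7 d library 5 (0.50, adjusted p = 0.0371) or intact ulna library 2 (0.46, adjusted p = 0.0421). Nkx3-2, a repressor that keeps chondrocytes from maturing, had a difference of 2.47 ± 0.30, Foxa3 2.33 ± 0.39 and Trps1 1.18 ± 0.13. Mef2c, which promotes hypertrophy, had a lower difference of -0.56 ± 0.19. Of 14 factors tested 10 rose and 2 fell in the femur, 8 rose and 1 fell in the ulna, and 7 had a higher and 2 a lower difference; the median change was 1.81 in the femur and 0.55 in the ulna, and the median difference 0.84.

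Genes of hypertrophic chondrocytes split. Ihh, the Indian hedgehog ligand, was at 29.9, 22.3, 55.1, 38.5 and 27.9 scaled RPKM in the fractured femurs and 4.82, 11.2, 6.90, 4.12 and 3.35 in the injured ulnas, from similar medians of 0.646 and 0.599 in the intact bones. The 2 injured groups did not overlap, and the difference was 2.62 ± 0.37 (adjusted p = 2.08e-06). Panx3, a channel of hypertrophic chondrocytes and osteoblasts, reached 127, 78.7, 175, 169 and 108 in the femurs and 45.7, 98.4, 49.7, 60.3 and 47.6 in the ulnas, which overlap. It rose by 6.54 ± 0.28 and 6.80 ± 0.28, with a difference of -0.26 ± 0.40 (95% interval -1.08 to 0.56) that did not pass. Pth1r, the receptor of parathyroid hormone and PTHrP (-0.06 ± 0.25), and Mmp13, the collagenase of late hypertrophic cartilage (-0.13 ± 0.45), also rose in both bones without a called difference. Of the 10 genes 7 rose and 2 fell in the femur, 7 rose in the ulna and 3 had a higher difference, namely Col10a1, Ihh and Fgfr3; the median change was 2.14 in the femur and 1.92 in the ulna, and the median difference -0.06, or -0.13 with RPKM as deposited, where 2 fell in the ulna, and -0.20 under upper-quartile scaling. In level 8 of the 10 were lower in the injured ulna. Over all genes 23.1% had a higher difference and 30.7% a lower level in the injured ulna.

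Of 11 hedgehog and PTHrP genes, 9 rose in the femur and 10 in the ulna, and 5 had a higher difference, a count of 2 higher and 1 lower under upper-quartile scaling, 3 higher with RPKM as deposited, 2 without femur 7 d library 3 or ulna 5 d library 5, and 3 without femur 7 d library 4 or ulna 5 d library 1. Hhip, a hedgehog-binding target of the pathway, had a difference of 2.07 ± 0.29, Gli1, a transcriptional target, 0.75 ± 0.27, and the receptor Ptch1 0.60 ± 0.21; the calls of Gli1 and Ptch1 were lost under another scaling. Pthlh, which encodes PTHrP, passed in neither bone, with differences between groups of -0.10 and 0.08.

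BMP and TGF-beta ligands moved in both directions. Inhba, the subunit of activin A, was at 55.4, 42.5, 43.0, 64.1 and 39.0 scaled RPKM in the fractured femurs against 3.35 to 4.84 in intact femurs. The injured ulnas were at 2.75, 3.38, 3.63, 4.80 and 2.88 against 2.02 to 3.10. The fractured femurs lay far above every other library, while the injured ulnas overlapped their intact limbs. The difference was 3.13 ± 0.17 (adjusted p = 8.55e-13). Gdf5, a BMP of joint and cartilage formation, had a difference of 3.11 ± 0.36 (adjusted p = 1.51e-07). Bmp3 (-2.25 ± 0.25), Bmp7 (-2.12 ± 0.26) and Bmp4 (-1.63 ± 0.20) had lower differences. They fell in the femur by 2.31, 1.82 and 1.11 and had ulna values of -0.07, 0.30 and 0.52. Of 14 ligands tested 8 rose and 5 fell in the femur, 8 rose in the ulna, and 3 had a higher and 6 a lower difference. Over all genes 32.6% rose and 35.4% fell in the femur and 21.3% rose in the ulna. The difference was higher in 23.1% and lower in 21.4% of all genes. Of 11 antagonists 6 had a higher and 3 a lower difference, or 4 each way under upper-quartile scaling. Without femur 7 d library 1, 10 antagonists were tested and 4 had a higher difference. A member was thus tested only with that femur, and the difference of such a gene is a description. Chrdl2, a chordin-like BMP binder, was highest at 3.38 ± 0.43, without an ulna value in the authors' deposited table. Bambi, a decoy receptor, had -1.32 ± 0.27 and the inhibitor Smad6 -1.24 ± 0.20.

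Among 12 Wnt ligands 2 had a higher and 4 a lower difference, from -2.4 ± 0.38 for Wnt1 and -1.50 ± 0.24 for Wnt16 to 0.99 ± 0.29 for Wnt10a. Over all genes tested 23.1% had a higher and 21.4% a lower difference. Among 11 Wnt antagonists 3 had a higher and 4 a lower difference. Frzb, known from cartilage (1.66 ± 0.25), Sfrp1 (1.33 ± 0.25) and Sfrp5 (1.83 ± 0.38) were higher, and Sost (-3.62 ± 0.33), Dkk1 (-2.22 ± 0.33), Wif1 (-1.96 ± 0.31) and Sfrp4 (-1.71 ± 0.33) lower. Of 16 FGF and IGF genes 6 had a higher and 7 a lower difference. Igf1, a growth factor for chondrocytes and osteoblasts, went from 11.2 ± 3.43 (SD, n = 10) to 91.7 ± 22 scaled RPKM (SD, n = 5) in the femur and from 7.68 ± 1.38 (SD, n = 9) to 21.1 ± 6.55 (SD, n = 5) in the ulna (difference 1.63 ± 0.28). Fgfrl1, an FGF receptor without a kinase domain, was highest at 2.11 ± 0.17. Fgf18 (-2.54 ± 0.43) and Fgf1 (-2.37 ± 0.17) had the lowest differences. Of 12 angiogenic factors 1, Thbs1 (1.14 ± 0.24), had a higher and 5 a lower difference, lowest for Vegfb (-1.27 ± 0.18). Vegfa passed in neither bone, with values of -0.05 and 0.19.

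Osteoblast genes had lower differences, rising more in the ulna from lower intact levels. Bglap, which encodes osteocalcin, lies at chr3:88383501-88384464 on the minus strand. Fractured femurs were at 95, 81.5, 55.5, 131 and 32.5 scaled RPKM, from 242, 576 and 1555 (lowest, median, highest) in intact femurs. Injured ulnas were at 496, 322, 364, 593 and 353, from 22.2, 101 and 274 in intact ulnas. The fractured femurs lay below every intact femur and the injured ulnas above every intact ulna. The changes were -3.19 ± 0.48 and 1.85 ± 0.49, and the difference -5.05 ± 0.69 (adjusted p = 1.47e-06). Its near-copy Bglap2, from which its reads are hard to separate, gave -4.89 ± 0.57. Col1a2, a chain of the collagen I of bone, was at 2486 to 4021 in fractured femurs and 2492 to 3523 in injured ulnas, which overlap. The intact medians were 1700 and 357, and the changes 0.86 ± 0.29 and 2.93 ± 0.30 (difference -2.08 ± 0.42, adjusted p = 0.0002). The femur change of Col1a2 did not pass with RPKM as deposited (adjusted p = 0.0506). Ibsp, bone sialoprotein, rose by 2.63 ± 0.27 and 4.01 ± 0.28 (difference -1.38 ± 0.39, adjusted p = 0.0046).

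All 15 osteoblast genes rose in the ulna, while 8 rose and 3 fell in the femur, and 13 had a lower and none a higher difference; the median change was 0.74 in the femur and 2.18 in the ulna, and the median difference -1.38. Bglap and Bglap2 were among those that fell in the femur. Sp7, the osteoblast factor osterix (-1.48 ± 0.27), and Ifitm5, a membrane protein of mineralising osteoblasts (-2.61 ± 0.41), also had lower differences. Spp1, osteopontin (-0.17 ± 0.35), and Omd, osteomodulin (-0.56 ± 0.34), were the members without a call. All 15 were lower in the intact ulna than in the intact femur. In the injured bones 5 of 15 were higher and 4 lower in the ulna, or 7 and 1 with RPKM as deposited, with a median level difference (ulna minus femur) of 0.10, or 0.39 with RPKM as deposited and 0.26 under upper-quartile scaling. Whether the lower intact levels carry the difference was not tested.

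Osteocyte genes fell in the femur and had lower differences. Sost, which encodes the Wnt inhibitor sclerostin, was at 24.8, 14.6, 12.1, 43.2 and 10.3 scaled RPKM in the fractured femurs, where intact femurs ranged from 204 to 422. In injured ulnas it was at 139, 62.0, 106, 108 and 122 and in intact ulnas from 118 to 183. Fractured femurs were separate from all other libraries, and injured and intact ulnas overlapped. It fell in the femur by 4.09, its ulna value of -0.47 ± 0.24 did not pass, though with RPKM as deposited it did (-0.61, adjusted p = 0.0406), and the difference was -3.62 ± 0.33 (adjusted p = 3.54e-09). Dmp1, a mineral-binding matrix protein, went opposite ways, at -1.45 ± 0.22 and 1.33 ± 0.23 (difference -2.78 ± 0.32, adjusted p = 1.22e-07). Mepe (-2.80 ± 0.30), another phosphoprotein of osteocytes, and Phex (-2.33 ± 0.27), a protease that lowers FGF23, had lower differences as well. Of 9 genes 8 fell and 1 rose in the femur, 4 rose and 2 fell in the ulna, and 7 had a lower difference; the median change was -1.45 in the femur and 0.33 in the ulna, and the median difference -2.22. With RPKM as deposited 3 rose and 3 fell in the ulna, with a median of 0.19. Pdpn, podoplanin of early osteocytes, was the one that rose in the femur, by 1.16. In level 7 of the 9 were higher in the injured ulna than in the fractured femur. Ostn, the secreted peptide osteocrin of osteoblasts and muscle, was among the lowest differences. It was at 1.10, 0.793, 0.452, 1.45 and 0.763 in fractured femurs and 34.5, 25.6, 30.7, 28.0 and 35.0 in injured ulnas, without overlap (difference -4.35 ± 0.28, adjusted p = 6.82e-12).

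**Figure D3:**
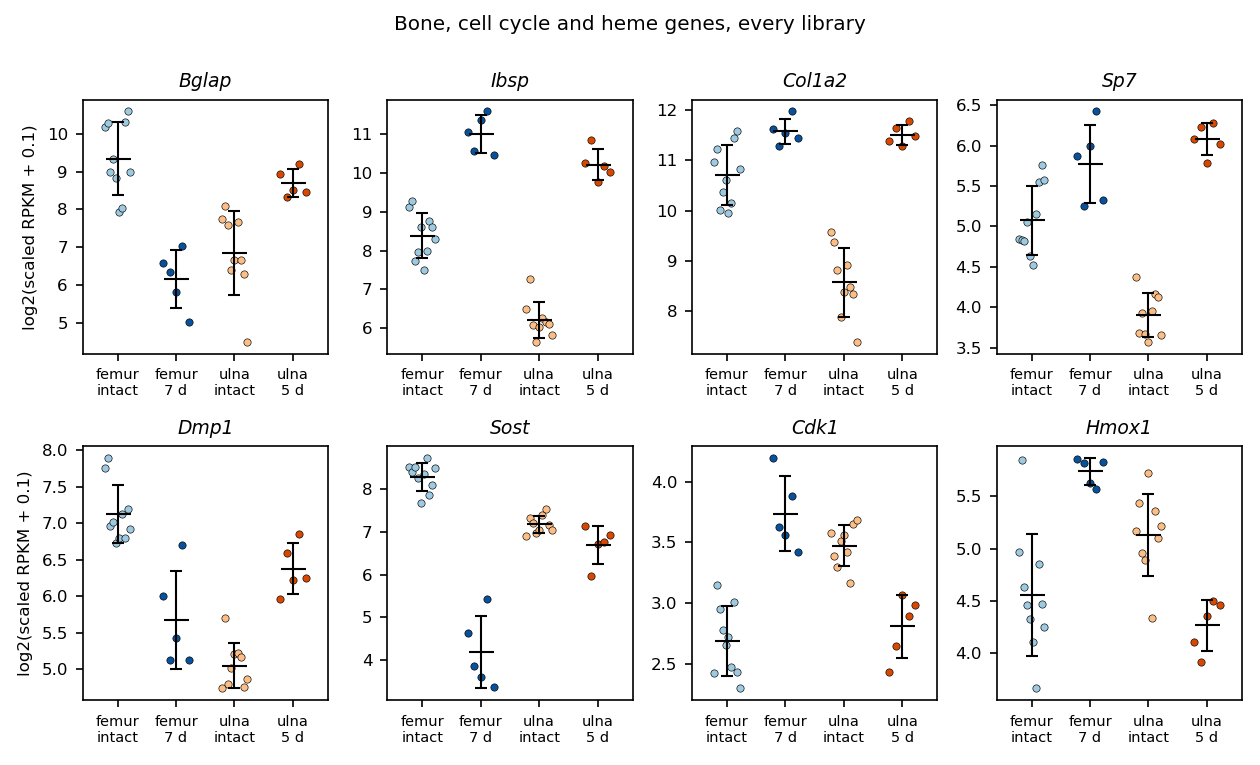
Scaled RPKM of 6 bone genes, the cell cycle kinase Cdk1 and Hmox1 in every library, on a log2 scale after adding 0.1, in the same 4 groups; points are libraries and bars the mean and SD of log2 values. Bglap and Dmp1 fall in the femur and rise in the ulna, Col1a2 reaches a like level in both injured bones, and Sost falls in the femur.

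Few osteoclast genes had a called difference at these days. Acp5, the acid phosphatase used to stain osteoclasts, was at 290.5, 183, 171, 536 and 198 scaled RPKM in fractured femurs and 41.9, 44.5, 43.9, 69.4 and 42.1 in injured ulnas, both overlapping their intact limbs, and its difference was 0.12 ± 0.36 (95% interval -0.60 to 0.85). Of 14 genes 2 had a lower difference, Car2, a carbonic anhydrase also abundant in red cells (-2.06 ± 0.48), and the integrin Itgb3, also of platelets (-0.87 ± 0.22). Without femur 7 d library 4 the count was 4. The median femur change was 0.13, or -0.04 under upper-quartile scaling. In level 8 of 14 were lower in the injured ulna, and 11 of 14 were lower in the intact ulna. Among 6 osteoclast signals Tnfsf11, the RANK ligand, rose in both bones by 1.42 and 1.30 (difference 0.12 ± 0.40), and 4 genes had lower differences, among them Il34 at -0.91 ± 0.22.

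Fibrous matrix genes rose in both bones. All 16 rose in the ulna and 15 in the femur, and 3 had a higher and 3 a lower difference. The last 2 counts are near the shares of all genes, 23.1% and 21.4%. The median change was 2.25 in the femur and 2.41 in the ulna, and the median difference -0.03. Fn1, fibronectin, was at 1569, 1141, 1545, 1691 and 1384 scaled RPKM in fractured femurs and 224, 396, 331, 333 and 197 in injured ulnas, without overlap, and had the highest difference at 1.49 ± 0.25 (adjusted p = 2.45e-05). Col3a1, the collagen III of granulation tissue, rose by 2.46 and 2.48 with a difference of -0.01 ± 0.33 (95% interval -0.68 to 0.65). The lower differences were those of Col1a1 (-2.35 ± 0.48), Col1a2 and Col5a2 (-1.02 ± 0.33). In level 13 of the 16 were lower in the injured ulna, and all 16 were lower in the intact ulna. Of 19 collagen processing genes 17 rose in the femur and 19 in the ulna, with 7 higher and 2 lower differences. Plod3, a lysyl hydroxylase that also glycosylates (1.4 ± 0.10), P4ha2, a prolyl hydroxylase (1.4 ± 0.20), and Loxl3, a crosslinking oxidase (1.76 ± 0.18), rose more in the femur, and Adamts2 (-1.19 ± 0.21) and Adamts14 (-1.21 ± 0.25), which trim the amino end of procollagen, had lower differences. Of 17 genes of the endoplasmic reticulum and secretion 16 rose in the femur and 15 in the ulna, and 10 had a higher and 1 a lower difference. Hspa5, the chaperone BiP, went up by 1.57 in the femur and 0.51 in the ulna (difference 1.06 ± 0.13). Hsp90b1 had the highest difference (1.15 ± 0.12), and the 1 lower difference was that of Creb3l1, an activator of collagen secretion in osteoblasts (-1.56 ± 0.31). Among 14 matrix proteases and inhibitors 3 had a higher and 3 a lower difference, again near the shares of all genes. The lowest was that of the aggrecanase Adamts5 (-1.53).

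Cell cycle genes fell in the ulna. Cdk1, the kinase of mitotic entry, was at 18.2, 12.2, 11.7, 14.7 and 10.6 scaled RPKM in the fractured femurs, above all intact femurs (4.81 to 8.78). The injured ulnas were at 5.30, 6.17, 8.27, 7.34 and 7.81, below all intact ulnas (8.89 to 12.7). The difference was 1.72 ± 0.19 (adjusted p = 7.9e-08). Of 18 genes 18 fell in the ulna, 5 rose and 2 fell in the femur, and 17 had a higher and none a lower difference, or 16 with RPKM as deposited and under upper-quartile scaling. The median change was -0.77 in the ulna and 0.16 in the femur, and the latter was -0.05 and -0.02 under those scalings. Mki67, the proliferation marker Ki-67, fell in both bones by 1.20 and 1.25, with a difference of 0.05 ± 0.22 (95% interval -0.40 to 0.50). All 18 were higher in the intact ulna than in the intact femur, and in the injured bones 1 was higher and 6 were lower in the ulna, or 4 and 1 with RPKM as deposited and 2 each way under upper-quartile scaling. Without fractured femur library 1, with RPKM as deposited or under upper-quartile scaling, the femur rise passed in 3 genes in place of 5. Marrow holds dividing precursors of red cells and B cells. Of their genes, 11 of 11 erythroid and 6 of 11 B cell genes also fell in the ulna, and summed erythroid levels were 4840 to 8382 scaled RPKM in intact and 738 to 3206 in injured ulnas. Their part in the result was not tested.

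The 5 largest differences among genes that fell in both bones and fell more in the ulna belonged to replication and chromatin genes, Hist1h1a (0.96 ± 0.36), Hist1h1d (0.90 ± 0.28), H2afx (0.83 ± 0.32), Nusap1 (0.78 ± 0.18) and Asf1b (0.74 ± 0.20). The calls of Hist1h1a (adjusted p = 0.0318) and H2afx (adjusted p = 0.0386) were lost under other scalings and without several single libraries.

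Glucose and oxygen genes were raised in the femur only in part of the list. Slc2a1, the glucose importer GLUT1, was at 39.1, 20.4, 37.1, 42.2 and 26.1 scaled RPKM in fractured femurs and 13.9, 13.9, 10.5, 11.5 and 10.2 in injured ulnas. It rose by 2.47 ± 0.14 in the femur and fell by 0.47 in the ulna, though intact ulnas (11.8 to 23.6) were above intact femurs (4.89 to 6.84). The difference was 2.95 ± 0.20 (adjusted p = 1.88e-11). Hif1a, the oxygen-regulated transcription factor, rose in both bones with a difference of 1.73 ± 0.13 (adjusted p = 1.6e-10). Car9, a hypoxia-induced carbonic anhydrase (2.42 ± 0.28), and the glycolytic enzymes Eno1 (1.90 ± 0.12) and Pfkl (1.81 ± 0.09) were higher too, while Ndrg1 (-1.33 ± 0.14), Aldoa, abundant in muscle (-1.15 ± 0.33), Epas1 (-1.07 ± 0.13) and Hk2 (-0.70 ± 0.22) were lower. Of 18 genes 9 had a higher and 4 a lower difference, and the median femur change of 0.17 was -0.04 with RPKM as deposited. All 15 oxidative phosphorylation genes fell in the femur and 8 in the ulna, or 15 in the ulna with RPKM as deposited and 12 under upper-quartile scaling, with 9 lower differences between -0.68 and -0.50. Muscle fibres use these complexes heavily, and all 13 muscle fibre genes fell in the femur too, with 10 lower differences. Their part in the result was not tested.

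Genes of blood and marrow cells were lower in the fractured femur. All 11 erythroid genes fell in both bones and had a lower difference; the median change was -4.72 in the femur and -1.80 in the ulna, and the median difference -2.95, or -3.48 for the difference without fractured femur library 1. Hba-a1, an alpha globin whose reads are shared with its copy Hba-a2, was at 89.5, 10.4, 17.6, 12.1 and 17.7 scaled RPKM in fractured femurs and 241, 172, 704, 702 and 536 in injured ulnas, the first femur standing far above the rest (difference -2.95 ± 0.52). All 8 platelet genes did the same, with a median difference of -3.26. Ppbp, a platelet chemokine, was at 12.0, 3.96, 6.79, 5.99 and 3.73 in fractured femurs and 126, 79.5, 109.5, 112 and 168 in injured ulnas, from like medians of 231 and 258 in intact bones (difference -4.30 ± 0.32, adjusted p = 6.46e-11). Tubb1, the platelet tubulin (-4.18 ± 0.26), Treml1 (-4.13 ± 0.37) and Ly6g6f (-4.06 ± 0.36) were also among the 12 lowest. Of 11 B cell genes 10 fell and 1 rose in the femur, 6 fell in the ulna and 9 had a lower difference, a count of 4 with a pseudocount of 1, and all 11 were higher in the intact ulna. The lowest erythroid difference was that of Slc4a1 (-3.64 ± 0.57), the red cell anion exchanger. Summed erythroid levels were 2359 to 5053 scaled RPKM in intact and 70.8 to 577 in fractured femurs, and summed B cell levels 32.1 to 51.6 and 12.3 to 14.1. Summed B cell levels were 64.8 to 166 in intact and 28.4 to 65.1 in injured ulnas, which the labels call periosteum although red cell and B cell genes were present there. The platelet genes showed no such gap, since 0 of 8 differed between the intact bones, or 4 of 8, higher in the ulna, with RPKM as deposited.

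Genes of other leukocytes followed this pattern only in part. All 15 neutrophil genes fell in both bones, and 4 had a lower difference, the early granule genes Mpo (-1.92 ± 0.32), Elane (-1.76 ± 0.37) and Prtn3 (-1.44 ± 0.39) and Fcnb (-0.84 ± 0.33), the last lost without femur 7 d library 5 (adjusted p = 0.0785), intact femur library 2 (adjusted p = 0.0523) or intact ulna library 2 (adjusted p = 0.0502), while S100a8, a calcium-binding protein of mature neutrophils, had 0.26 ± 0.33 (95% interval -0.42 to 0.94). Of 15 macrophage genes 10 rose and 2 fell in the femur, 5 rose and 2 fell in the ulna (3 rose with RPKM as deposited), and 5 had a higher and 2 a lower difference, or 8 higher without femur 7 d library 4. Arg1, arginase (1.34 ± 0.36), and the lysosomal protease Ctss (1.05 ± 0.21) were higher, and Cd163, the haemoglobin scavenger receptor (-2.29 ± 0.27), lower. Of 7 mast cell genes 4, all proteases, rose in the ulna and 3 fell there, Kit (-0.56), the receptor of stem cell factor, Ms4a2 (-0.82), a chain of the IgE receptor, and Hdc (-1.17), which makes histamine; with RPKM as deposited 3 rose. Cma1, chymase, was at 6.74, 5.16, 3.75, 2.79 and 4.15 scaled RPKM in injured ulnas, above all intact ulnas (0.519 to 1.51), and at 0.410, 0.840, 1.39, 0.781 and 0.393 in fractured femurs, overlapping intact femurs (0.436 to 1.61). Its difference was -2.4 ± 0.42 (adjusted p = 3.62e-05), with Mcpt4 at -2.13 ± 0.43, and 6 of the 7 had a lower difference. Among 12 cytokines tested 5 had a higher and 1 a lower difference, a count of 8 higher at pseudocounts of 0.5 and 1. Il1a was the lower one (-1.73 ± 0.26) and the chemokine Ccl3 the highest (1.11 ± 0.27). Il11, a cytokine of bone and fibroblasts, rose in both bones by 3.56 and 2.52 (difference 1.04 ± 0.33). Of 10 T cell genes 9 fell in each bone and 2 had a lower difference, Cd3g (-1.02 ± 0.39) and Cd2 (-0.81 ± 0.31). Neither passed with a pseudocount of 0.5 or 1, without femur 7 d library 2 or without ulna 5 d library 1. Over all genes 23.1% had a higher and 21.4% a lower difference. The counts of lower differences among T cell and neutrophil genes are near that share.

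Muscle and fat genes also differed. All 13 muscle fibre genes fell in the femur and 10 had a lower difference. In the ulna 3 fell, or 9 with RPKM as deposited, 6 without femur 7 d library 1 and 5 without intact femur library 2. Summed, they stood at 10520 to 33310 scaled RPKM in intact and 1799 to 10810 in fractured femurs, and at 12490 to 19060 in intact and 8042 to 11380 in injured ulnas. Myh7, the slow myosin, was at 10.1, 24.9, 10.9, 5.62 and 16.9 scaled RPKM in fractured and 139.5 to 718 in intact femurs, but at only 0.585 to 2.38 in intact ulnas (difference -4.44 ± 0.63), and Myl3, a slow light chain, gave -4.54 ± 0.55. Injured ulna library 5 was highest for both, at 4.84 for Myh7 and 4.72 for Myl3. Myh8, the perinatal myosin of regenerating fibres, was at 10.9, 43.6, 32.9, 4.54 and 46.9 in fractured femurs and 2.06, 9.21, 0.502, 0.504 and 0.325 in injured ulnas (difference 3.80 ± 0.75, adjusted p = 0.00017), the second ulna falling within the femur range. Without that ulna the difference of Myh8 was 4.53. Of 8 muscle regeneration genes 5 rose in the femur and 5 had a higher difference, a count of 3 where genes needed at least 1 scaled RPKM. Soft tissue was removed by dissection, and how much muscle stayed on the sections was not measured. All 9 adipocyte genes fell in the femur, 2 fell in the ulna and 8 had a lower difference, the lowest being Cidec, a lipid droplet protein (-3.40 ± 0.57). Adipoq, adiponectin, was at 3.73, 1.31, 2.53, 2.71 and 1.00 in fractured femurs, below all intact femurs (17.0 to 46.2), and at 38.6, 16.8, 19.8, 23.2 and 31.5 in injured ulnas, within reach of intact ulnas (21.7 to 51.9) (difference -3.30 ± 0.37). Myoc, myocilin, had the lowest difference of all named genes at -5.09 ± 0.41 (adjusted p = 3.38e-10), with intact femurs at 7.08 to 31.4 and fractured femurs at 0.552 to 2.56.

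Retnla, a resistin-like secreted protein (-4.01 ± 0.68), and Cyp2e1, a cytochrome P450 enzyme (-4.01 ± 0.69), completed the 12 lowest differences. Tendon genes included Tnmd, tenomodulin, with a higher difference of 2.09 ± 0.38, and Tnxb, tenascin X, with a lower one of -2.0 ± 0.34, among 2 higher and 1 lower of 7. Over all genes 23.1% had a higher and 21.4% a lower difference. Of 10 mesenchymal progenitor genes 2 had a higher and 5 a lower difference, among them Pdgfra (-0.72 ± 0.23) and Cxcl12, a chemokine of marrow stroma (-1.20 ± 0.22). Of 11 endothelial genes 1 had a higher and 6 a lower difference, Emcn, endomucin of small vessels, at 0.39 ± 0.16, which did not pass with RPKM as deposited (adjusted p = 0.111), under upper-quartile scaling (adjusted p = 0.197), without femur 7 d library 1 (adjusted p = 0.0738) or without intact ulna library 2 (adjusted p = 0.0701), and, lowest, Vwf, which platelets also carry, at -1.76 ± 0.20. The Schwann cell list had 1 higher and 3 lower of 8, from -2.61 ± 0.32 for Gfra3 to 0.83 ± 0.23 for Pmp22. Of 15 immediate early genes, near the shares of all genes, 4 were higher, led by Ier3 (1.71 ± 0.17), and 3 lower, led by Egr3 (-2.09 ± 0.32). Of the lower ones 1 passed without femur 7 d library 1, femur 7 d library 5 or ulna 5 d library 2. The 2 keratinocyte genes tested of 8 had no call in either bone. The share of the sections taken up by marrow, muscle or fat was not measured, and the part of these cell types in the cartilage and bone results was not tested.

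**Figure D4:**
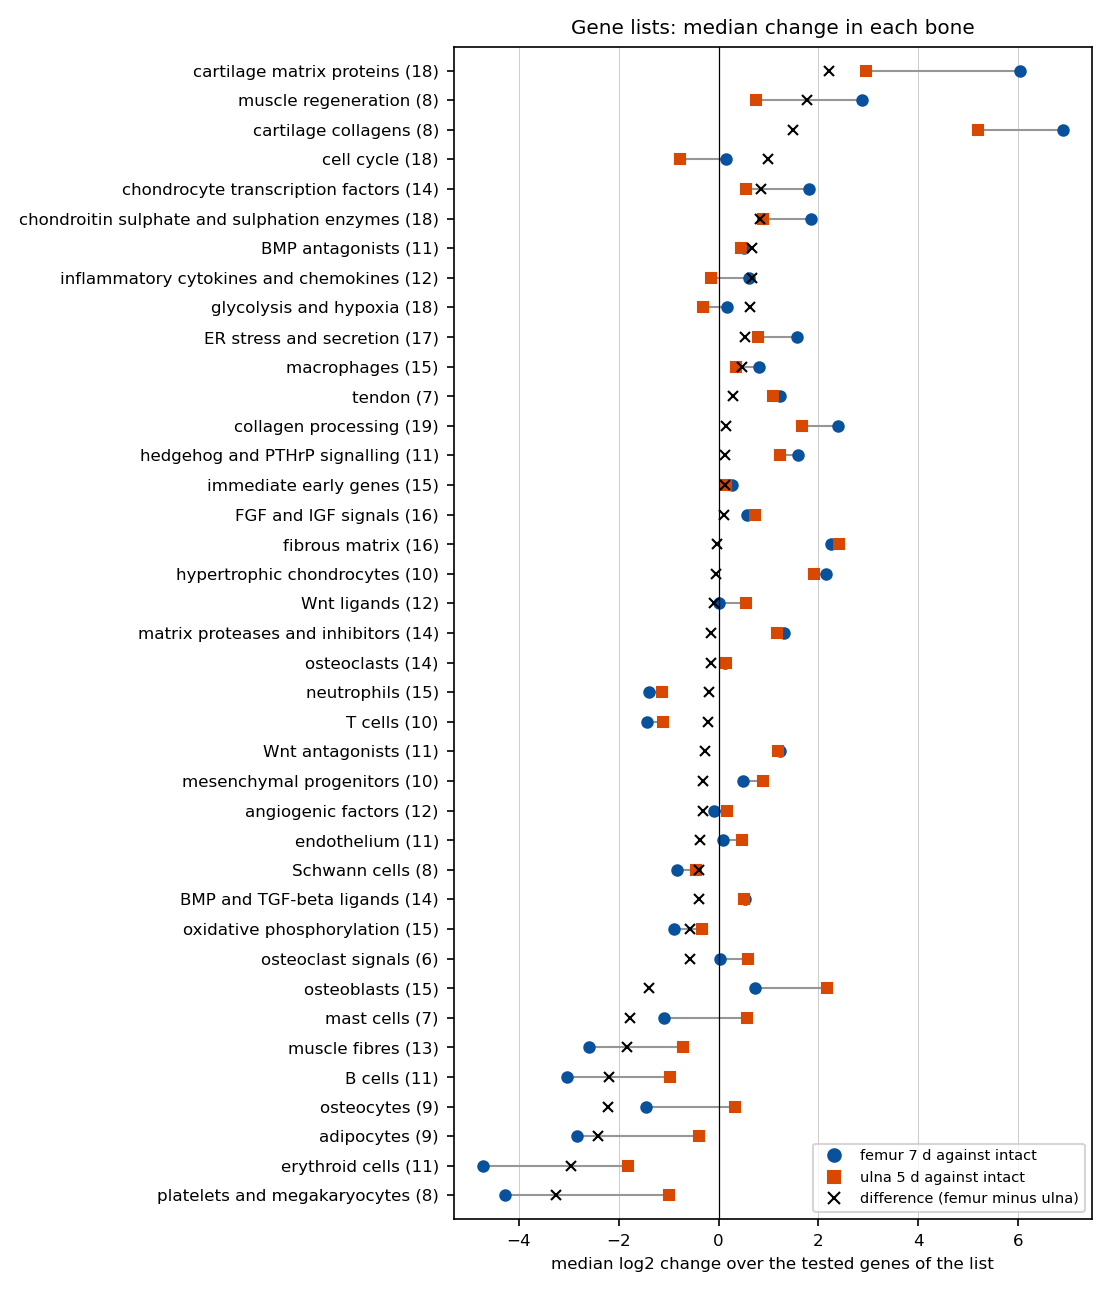
Median log2 change of each gene list with at least 6 members tested, in the femur at 7 d (circles), in the ulna at 5 d (squares) and as the difference (x marks), sorted by the difference. Cartilage matrix, muscle regeneration and cartilage collagens lie at the top, and platelets, erythroid cells, adipocytes, osteocytes and B cells at the bottom.

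Some genes went opposite ways. In 322 genes the femur rose and the ulna fell, and in 205 the femur fell and the ulna rose; the genes named were chosen for these changes, so their differences are a description. Hmox1, the haem-degrading oxygenase, was at 57.8, 56.4, 49.4, 47.4 and 56.7 scaled RPKM in fractured femurs, above all intact femurs but library 2 (57.5), and at 17.1, 15.0, 20.3, 22.5 and 21.9 in injured ulnas. It rose by 1.18 ± 0.23 and fell by 0.87 (difference 2.05 ± 0.32). Clec4d, a lectin of myeloid cells (1.83 ± 0.35), Rpa3, a subunit of the single-strand binding protein of replication (1.70 ± 0.23), and Pbk, a mitotic kinase (1.79 ± 0.17), did the same. The reverse was seen in Lipc, hepatic lipase (-3.60 ± 0.49), Slc36a2, an amino acid transporter (-2.84 ± 0.28), and Col22a1, a collagen of tissue junctions (-2.79 ± 0.25), beside Bglap and Bglap2. Slc36a2 was at 6.78, 4.11, 4.71, 11.6 and 4.86 in fractured femurs and 21.4, 23.1, 21.4, 32.1 and 24 in injured ulnas, which do not overlap.

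Some genes rose more in the ulna although they rose in both bones. Beside Col1a2 these were Cgref1 (-1.85 ± 0.44), Tmem119, a membrane protein of osteoblasts (-1.71 ± 0.29), the protease Adamts18 (-1.63 ± 0.31) and Creb3l1. The 5 named genes that rose alike were Loxl4, a crosslinking oxidase, the folding helpers Fkbp11, Gpx7 and Kdelr3, and Timp1, the metalloproteinase inhibitor. Kdelr3 rose by 2.97 ± 0.20 in the femur and 2.97 ± 0.20 in the ulna, with a 95% interval of the difference of -0.57 to 0.57. Timp1 rose by 2.96 ± 0.19 and 3.13 ± 0.19, with an interval of -0.72 to 0.39. Gch1, Abcb10, Fhdc1, Hdc and Tfrc, the transferrin receptor, fell alike, Tfrc by 1.48 and 1.24 with an interval of -0.62 to 0.14. Under upper-quartile scaling Gch1 and Abcb10 had lower differences that passed the test. Without ulna 5 d library 2 the differences of Loxl4 (0.63), Gch1 (-0.61), Abcb10 (-0.51) and Hdc (-0.62) passed, and that of Abcb10 (-0.51) also without femur 7 d library 1.

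Values at the other sampled times place both days in their courses, without a test. Mean Col2a1 in the femur was 117, 48.6, 65.4, 4104 and 593 scaled RPKM at 4 h, 1 d, 3 d, 7 d and 14 d. In the ulna it was 6.15, 2.89, 17.1, 476 and 160.2 at 4 h, 1 d, 3 d, 5 d and 7 d. The days compared held the highest mean of each course. Gzme means in the femur were 2.78 at 1 d, 2.18 at 3 d, 19.2 at 7 d and 0.952 at 14 d, and no ulna mean exceeded 0.0400. Bglap in the femur stood at 73.5 at 3 d, 79.2 at 7 d and 605 at 14 d, and in the ulna at 277 at 3 d, 426 at 5 d and 514 at 7 d.

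**Figure D5:**
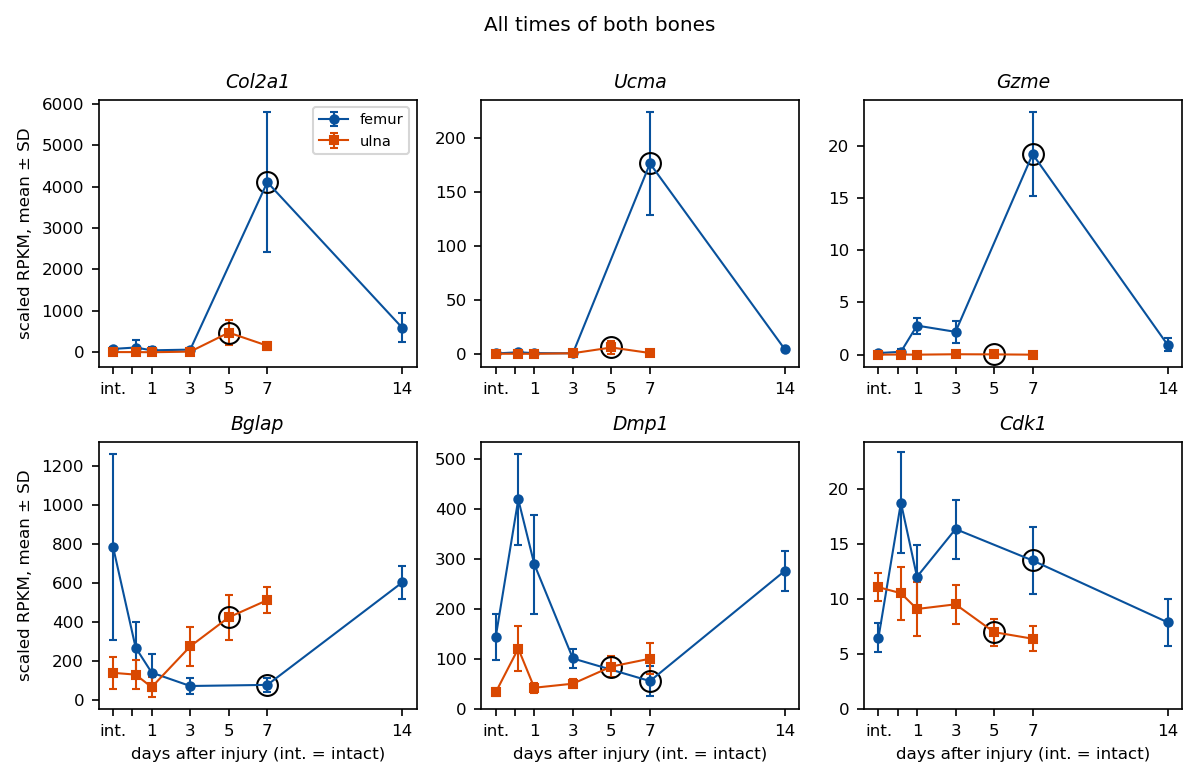
Mean scaled RPKM with SD of Col2a1, Ucma, Gzme, Bglap, Dmp1 and Cdk1 by day after injury in the femur and the ulna (5 libraries a time, 4 in the ulna at 1 d and 7 d), with the days compared circled. Col2a1, Ucma and Gzme are highest in the femur at 7 d, while Bglap in the femur is higher at 14 d than at 7 d.

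With the ulna taken at 7 d in place of 5 d (n = 4), 4964 genes had a higher and 4991 a lower difference. The median difference of the cartilage collagens was then 2.96 in place of 1.48, with 5 higher and 0 lower. Of 15 osteoblast genes 10 had a lower and 0 a higher difference, where 13 were lower against 5 d. Osteoclast genes, of which 2 had a lower difference against 5 d, had 13 of 14 lower against 7 d.

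The authors' deposited table of the same groups gave femur log2 changes that correlated with those here across 15263 genes at r = 0.993, and ulna changes at r = 0.996 across 15684 genes. Genes are not independent replicates, so these values describe the tables only. Of the 8007 genes with a called difference that stood in both of the authors' deposited tables, 8007 had the same sign there. Called genes without an ulna value there, among them Gzmc, Gzmd, Gzme, Ucma, Epyc and Lect1, are not in this count. For Col10a1 the authors' deposited table gave 8.36 in the femur and 4.38 in the ulna, beside 8.39 and 4.86 here. For Clec3a the authors' deposited table gave 1.07 in the ulna, where the fit here gave 3.70.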

How the data were processed

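RNA of pulverised femur and ulna sections (RIN above 6.5) was depleted of ribosomal RNA and sequenced as single 50-base reads, per the labels' protocols. Reads were processed with STAR 2.4.2a, Subread and featureCounts 1.4.6 on mm10, and fold changes with DESeq2, per the submitters' processing notes; the sources used here do not name the gene annotation. The authors deposited RPKM per gene and library, per the file headers, and tables of log2 fold changes with p-values for each time, which served only for comparison. Of the columns, 67 were matched to groups through their headings and sheet names.

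The 45634 gene names shared by both bones were used, leaving out 27 names in each bone that a spreadsheet had turned into dates (0.101% and 0.104% of the RPKM). Depth was recovered from the steps that single reads make in RPKM at a gene's length: between 88.9% and 91.2% of values under 20 reads came out whole within 0.01, and since lengths vary by gene no count test was run. RPKM was scaled by medians of ratios over all 67 libraries, a pseudocount of 0.1 was added, and a gene was tested if 5 or more libraries reached 0.5 scaled RPKM. limma 3.58.1 in R 4.3.3 (trend and robust variance, 25 residual degrees of freedom) was fitted to 29 libraries in 4 groups, with Benjamini-Hochberg adjusted p-values; the method was tested on simulated data. A log2 change at low RPKM is understated by the pseudocount.

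Named genes were the 12 largest differences each way at 5 or more scaled RPKM without overlap of the 5 femur and 5 ulna changes; 5 genes each way that moved oppositely; 5 each way that moved further in the ulna; 5 each way that moved alike; and members of 40 lists (488 genes, 472 tested), with any beyond 4 in a list, and the granzyme and killer cell genes outside the lists, picked after their values were seen. Predicted genes and small RNAs were not named, and some list members are not reported here by name. The comparison, its members and the lists were chosen with earlier results of these data known. Alternatives were other scalings, pseudocounts, filters and variance models, all 67 libraries, ulna 7 d, and leaving out single libraries. Promoters were taken from RefSeq (GRCm38.p6), and gene coordinates from GENCODE M21.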

Additional observations from a re-analysis of the deposited data

Results flagged for a closer look

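The check covered 296 groups of 5 to 10 libraries, taken over the named genes of the first 4 kinds, selected list scores and read depth. In 31 (10.5%) a library's gap to its neighbour exceeded the 95% critical value of Dixon's test. With independent normal values chance alone flags about 1 in 20. Scaled RPKM was used here without logs and the same libraries recur over genes, so the 2 shares cannot be compared. Intact femur library 2 stood apart most often. It was at 4.20 scaled RPKM for Scrg1, 7.08 for Myoc where the others were at 23.8 or more, 415 for Ppbp, 49.4 for Treml1, 57.5 for Hmox1, 133 for H2afx and 12.3 for Nusap1. Its list scores were 0.863 for platelets, -1.08 for muscle fibres and -0.580 for keratinocytes.

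Intact ulna library 2 stood apart with 6.89 for Scrg1, 0.462 for Ucma, 30.6 for Cyp2e1 and, on the low side, 5.83 for Fhdc1, and with scores of 1.19 for cartilage matrix and 0.575 for tendon. Intact ulna library 8 held the only Gzmc value above 0 among intact ulnas, 0.0652.

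Among fractured femurs, library 1 was at 3.22 for Tubb1 and 9.66 for Abcb10 with an erythroid score of -2.44, library 2 at 2.56 for Myoc, library 3 had a T cell score of -1.48, library 4 was at 9.01 for Adamts18 and library 5 at 15.5 for Gzmd. Among injured ulnas, library 2 was at 1.06 for Epyc and 25.3 for Tubb1, library 3 at 7.06 for Pbk, library 4 at 32.1 for Slc36a2 with an osteoclast score of 0.320, and library 5 at 4.72 for Myl3 and 4.84 for Myh7.

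Named genes with opposite changes in femur and ulna were chosen for those changes, so their differences are given as a description, with no test. The difference was 2.05 for Hmox1, 1.83 for Clec4d, 1.70 for Rpa3, 1.79 for Pbk and 1.72 for Cdk1. It was -5.05 for Bglap, -4.89 for Bglap2, -3.60 for Lipc, -2.84 for Slc36a2 and -2.79 for Col22a1.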

How the results depend on the processing

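With RPKM as deposited, 6740 genes fell in the ulna in place of 4192, 8029 were higher and 2142 lower in the intact ulna, and 3556 were lower in the injured ulna than in the fractured femur in place of 6091; the cause was not tested. The counts of the difference itself stayed within 1.5 times under every alternative run. Fkbp11, which rose alike, had a difference of 1.00 that passed with the ulna at 7 d. Leaving out single libraries gave 4207 to 4694 higher and 3881 to 4328 lower differences, 6158 to 6490 rises and 6670 to 7071 falls in the femur, 3765 to 4341 rises and 3556 to 4406 falls in the ulna, 3513 to 4026 higher and 4321 to 4853 lower in the intact ulna, and 5505 to 5961 higher and 5735 to 6183 lower in the injured ulna. Of the named genes of the first 4 kinds, 48 of 52 kept their call under upper-quartile scaling and 50 with RPKM as deposited. In both cases Hist1h1a (0.82 and 0.90) and H2afx (0.69 and 0.76) no longer passed. With the ulna at 7 d in place of 5 d, 41 of 52 kept their call, 5 calls were lost and 5 gained. In 1 gene the sign turned. Over the fits without single libraries 1468 results were kept, 15 calls were lost and 5 gained. Here as above, a gene that stayed without a call counts as kept. A gene no longer tested in a fit is not counted, such as Gzme whenever a fractured femur was left out. Without the 3 libraries that stood apart, 48 of the 52 were still tested. Intact levels, bone, day and marrow removal differ between the arms, so the difference has no single reading. No paired analysis was possible because the table columns carry no animal number.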
